A study of Homo sapiens with 24 samples.

Results

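ID3-KO and WT AID-DIvA cells were compared after treatment with mocetinostat and recovery, in 6 of the 24 libraries of the series, 3 per genotype. AID-DIvA cells derive from the osteosarcoma line U2OS and make AsiSI, a restriction enzyme, in a form that can be sent to the nucleus and degraded with auxin. The 6 libraries came from cells kept for 24 h with mocetinostat, an inhibitor of class I histone deacetylases (HDACs), and then for 24 h in fresh medium without it. The members were chosen by sample title, with 3 biological replicates each of the ID3-knockout genotype and of the wt genotype. The treatment field of the deposited labels gives the opposite treatment for all 12 AID-DIvA libraries, and the titles were followed. The titles were checked on 1021 genes that were higher with mocetinostat in both U2OS genotypes. These genes averaged at least 1 CPM (scaled read counts) in the AID-DIvA libraries. Of them, 767 (75.1%) were higher in the WT libraries titled as treated than in those titled as untreated. In the KO libraries 809 (79.2%) were higher. The median log2 ratios were 0.39 in WT and 0.47 in KO libraries. No share over all genes was set beside these percentages, so they do not settle which label is right. Whether the KO line is a single clone, how the knockout was made, the mocetinostat dose of this experiment and whether AsiSI was induced before RNA collection are not given in the sources used here.

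The question of the comparison was how the transcriptomes of the genotypes differed once the drug had been removed. The same genotypes were set side by side in 6 untreated AID-DIvA libraries and in 6 libraries of U2OS cells collected with mocetinostat, a stage taken from the study's methods. These U2OS libraries carry DivA in their library names, so it is not known whether their KO cells are another line than the AID-DIvA KO cells, and cell line label and stage coincide. Total counts ran from 37878751 to 69381734 in the treated KO libraries and from 44530742 to 55617299 in the treated WT libraries. Mitochondrial transcripts took 9.01% to 9.47% of counts in KO and 8.06% to 8.97% in WT cells. KO replicate 1 and WT replicate 1 each stood further from their own replicates 2 and 3 than these stood from each other (chi-square per gene 18.1 and 24.1 against 4.21 in KO, 12.2 and 15.4 against 2.62 in WT). List counts of at least 4 that moved by over 1.5 times when 1 library was left out are given with the value without it. Of the 8 osteosarcoma line markers, all were tested; type I collagen (COL1A1) was at 1088 and 1061 CPM in KO and WT cells. Of 10 haematopoietic markers only CD3D passed the filter on low counts, with 1.54 and 2.34 CPM, and CD3E and HBB were at 0 in all 6 libraries. The 6 epithelial markers summed to 9.38 to 10.3 CPM in KO and 7.91 to 8.56 CPM in WT cells, the 4 endothelial markers to 3.57 to 3.97 and 3.21 to 4.74 CPM, and the 5 neural markers to 7.22 to 8.81 and 12.8 to 13.5 CPM, with RBFOX3 the largest share.

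ID3 is a helix-loop-helix protein without a DNA-binding region. It pairs with E proteins such as TCF3, TCF4 and TCF12 and keeps them from binding E-box sequences, through which they switch on genes of differentiation and of cell cycle arrest. Class I HDACs remove acetyl groups from histones, and their inhibition changes the expression of many genes, including cell cycle and immune genes.

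Promoter sequences are shown for 6 genes, because E-box letters are the sequences that E proteins are known to bind. They are the 3 highest-ranked genes in each direction with an entry among the RefSeq promoters used here (GRCh38.p14; 4 of the 12 genes with the largest positive and 7 of the 12 with the largest negative difference had an entry). Each sequence is the 250 bases before the start, written 5′ to 3′, with every CANNTG in capitals. The first 3 genes were higher and the last 3 lower in KO cells.
IGFBP4 (chr17:40443200-40443449, strand +): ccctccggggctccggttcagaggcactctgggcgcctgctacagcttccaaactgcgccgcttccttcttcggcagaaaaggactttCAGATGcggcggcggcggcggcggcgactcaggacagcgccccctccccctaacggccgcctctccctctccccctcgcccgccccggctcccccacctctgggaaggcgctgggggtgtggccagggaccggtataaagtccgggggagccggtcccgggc
MAGEB1 (chrX:30243481-30243730, strand +): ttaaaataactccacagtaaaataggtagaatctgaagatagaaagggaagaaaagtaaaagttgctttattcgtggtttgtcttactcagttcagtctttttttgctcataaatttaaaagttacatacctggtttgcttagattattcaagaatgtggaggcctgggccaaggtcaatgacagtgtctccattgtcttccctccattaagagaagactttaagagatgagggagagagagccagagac
RTP3 (chr3:46497726-46497975, strand +): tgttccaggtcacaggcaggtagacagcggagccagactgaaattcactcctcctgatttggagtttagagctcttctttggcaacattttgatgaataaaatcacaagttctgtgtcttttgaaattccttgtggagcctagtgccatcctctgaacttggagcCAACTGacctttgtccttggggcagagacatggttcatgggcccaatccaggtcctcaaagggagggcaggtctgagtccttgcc
RP11-867G2.6 (chr11:94637793-94638042, strand +): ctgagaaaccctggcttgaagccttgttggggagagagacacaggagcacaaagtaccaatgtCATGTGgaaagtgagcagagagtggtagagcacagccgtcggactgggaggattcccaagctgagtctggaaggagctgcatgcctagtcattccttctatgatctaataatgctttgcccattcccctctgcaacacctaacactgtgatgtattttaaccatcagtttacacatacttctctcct
TBX4 (chr17:61456238-61456487, strand +): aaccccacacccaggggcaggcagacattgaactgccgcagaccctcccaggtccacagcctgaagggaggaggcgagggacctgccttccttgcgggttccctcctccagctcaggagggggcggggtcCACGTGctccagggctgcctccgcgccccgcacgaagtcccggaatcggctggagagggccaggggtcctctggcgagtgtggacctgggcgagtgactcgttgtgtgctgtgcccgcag
HEYL (chr1:39639644-39639893, strand -): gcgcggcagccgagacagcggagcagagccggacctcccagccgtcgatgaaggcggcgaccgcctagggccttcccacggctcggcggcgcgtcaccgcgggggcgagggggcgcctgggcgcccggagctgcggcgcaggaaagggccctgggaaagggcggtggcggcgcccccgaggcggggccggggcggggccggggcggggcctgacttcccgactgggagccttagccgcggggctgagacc

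CANNTG stood in these 250 bases in 58.1% of the 279 promoters matched to genes higher in KO cells, in 62.5% of the 251 matched to genes lower in KO cells and in 54.6% of the 13025 matched to all genes tested. The narrower CAGCTG was found in 15.8%, 15.1% and 13.0%, and CACCTG or its reverse complement CAGGTG in 21.9%, 20.3% and 16.1%. Both are forms of CANNTG, and both strands are covered because CANNTG and CAGCTG read the same on either strand. For genes passing an adjusted p below 0.05 alone, without the log2 threshold, the shares were nearer to those of all genes tested. CANNTG then stood in 52.8% of promoters of higher and 55.8% of promoters of lower genes. CAGCTG was found in 12% and 14%, and CACCTG or CAGGTG in 19.3% and 16.4%. For the higher genes, CANNTG and CAGCTG thus fell below the share of all genes tested. The letters are a description of the window and not evidence of binding.

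ID3 mRNA (ENSG00000117318.8, GRCh37 chromosome 1, 23884409 to 23886285) was lower in the KO libraries but was still counted in all of them. It stood at 62.4, 59.1 and 63.9 CPM (read counts scaled to a fixed library size with edgeR's TMM factors) in the KO and at 99.5, 126 and 122 CPM in the WT libraries. The groups did not overlap, with means of 61.8 ± 2.45 and 116 ± 14.1 (SD, n = 3 each) and a log2 difference of -0.89 (standard error 0.09, edgeR adjusted p = 7.3e-05). The difference was -0.56 in untreated cells, and the change between the states did not pass the test (log2 interaction -0.34, edgeR adjusted p = 0.26). RNA does not show whether protein is made; the study checked the knockout by Western blot.

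The other inhibitors of DNA binding and the E proteins differed little. ID1 stood at 323, 315 and 330 CPM in KO and 292, 291 and 287 CPM in WT cells. It was higher by 0.17 on the log2 scale (edgeR adjusted p = 0.043), and no longer passed in 11 of 14 alternative settings. Over these 14 settings the adjusted p ran from 0.036 to 0.18. ID2 (-0.13) and ID4 (-0.04) did not pass. Among the E proteins, TCF3 stood at 238, 215 and 224 CPM in KO and 191, 218 and 215 CPM in WT cells (log2 difference 0.13, edgeR adjusted p = 0.24). TCF4 (-0.09) and TCF12 (0.06) did not pass either, so none of the 3 E protein mRNAs was shown to differ. The study describes mocetinostat as a class I HDAC inhibitor, and which HDACs it inhibited in these cells was not tested here. Of the 4 class I HDACs, HDAC1 passed. HDAC1 stood at 207, 203 and 188 CPM in KO and 158, 150 and 157 CPM in WT cells (log2 difference 0.38, edgeR adjusted p = 0.0013). HDAC2 (0.21), HDAC3 (0.02) and HDAC8 (-0.01) did not pass.

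After recovery 503 of 20100 tested genes (2.5%) were higher and 454 (2.26%) lower in KO than in WT cells, at a Benjamini-Hochberg adjusted p below 0.05 in edgeR's quasi-likelihood test and a log2 difference beyond 1. At an adjusted p below 0.05 alone, 2537 (12.6%) were higher and 2222 (11.1%) lower, the shares beside which the list counts below stand. The called genes had median log2 differences of 1.34 and -1.35, and 268 of the higher and 206 of the lower genes averaged at least 1 CPM. The genotypes did not overlap in 499 of the 503 and 453 of the 454, against 41.6% of all genes tested. Long noncoding RNA genes made up 18.5% of the higher and 30.4% of the lower genes, beside 15.6% of the genes tested, and protein-coding genes 69.4% and 59.0%, beside 72.7%. The median over all tested genes was -0.02, and it stayed between -0.03 and -0.01 with other scalings.

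Several of the genes with the largest positive difference had few or no reads in WT cells. DLX4 (ENSG00000108813.9, chromosome 17, 48046334 to 48052321), a homeobox transcription factor, had 350, 561 and 367 counts in the KO libraries and 0 in each WT library. Against a floor of 3 counts per WT library it was at least 143-fold higher. IGFBP4 (chromosome 17, 38599702 to 38613983), which binds insulin-like growth factors, stood at 34.6, 30.5 and 29.4 CPM in KO cells and rested on 3, 4 and 3 counts in WT cells, a ratio of 484 with a 95% counting interval of 263 to 1009 (edgeR adjusted p = 1.7e-09). HOXB2 (chromosome 17, 46618256 to 46623441), another homeobox factor, was at 22.5, 19.997 and 18.7 CPM against 0.22, 0.18 and 0.14 CPM (log2 difference 6.81, standard error 0.17).

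Cancer-testis antigens, which are normally made in germ cells, were among them. MAGEB1 (chromosome X, 30261847 to 30270155) stood at 9.46, 9.29 and 8.35 CPM in KO and at 0.07, 0.13 and 0.11 CPM in WT cells (log2 difference 6.43). CTAG2 (chromosome X, 153880246 to 153881853) had 170, 289 and 188 counts in KO and 3, 3 and 2 in WT libraries, a ratio of 81.5 with a counting interval of 41.1 to 190 (95%, counting error only). COL3A1, the chain of type III collagen, was the most abundant of the 12 genes with the largest positive difference: 235, 221 and 244 CPM in KO against 9.77, 14.7 and 13.6 CPM in WT cells (log2 difference 4.21, standard error 0.14, edgeR adjusted p = 2.0e-07). CRYAB, the small heat shock protein alpha-B crystallin, stood at 109, 85.4 and 81.0 against 4.14, 6.54 and 5.87 CPM (log2 difference 4.07). The remaining genes of the 12 were RTP3 (5.21), C17orf96 (4.98), TNNC1 (4.85), which encodes slow and cardiac troponin C, CTD-2267D19.3 (4.09) and C1QTNF1 (4.0, log2 differences). The value of CTD-2267D19.3 moved to 10.15 when the counts of the reverse strand alone were used, a fitted value that depends on near-zero counts in WT cells.

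Among the 12 genes with the largest negative difference were transcription factors of development and several long noncoding RNAs. RUNX3 (chromosome 1, 25226002 to 25291612), a Runt-domain factor, stood at 0.50, 0.70 and 0.67 CPM in KO and at 7.20, 7.62 and 7.18 CPM in WT cells (log2 difference -3.50, standard error 0.14, edgeR adjusted p = 1.4e-07). TBX4 (chromosome 17, 59529765 to 59562471), a T-box factor of limb and lung development, was at 0.26, 0.09 and 0.17 against 2.59, 3.15 and 2.72 CPM (-4.13). HEYL (chromosome 1, 40089825 to 40105617), a Notch target that is itself a helix-loop-helix repressor, was at 0.03, 0.20 and 0.23 against 2.31, 2.36 and 2.83 CPM (-3.87). In these 3 genes each KO library was below each WT library, as the rule that chose them required.

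The noncoding RNAs of this group were RP11-867G2.6 (-4.60), AFAP1-AS1 (-4.14), RP6-91H8.3 (-3.17) and RP11-588H23.3 (-3.08). RP11-867G2.6 had 3, 4 and 5 counts in KO libraries, and WT cells stood 25.2-fold higher with a 95% counting interval of 14.2 to 49.3. AFAP1-AS1, which lies antisense to AFAP1, stood at 0.26, 0.31 and 0.25 CPM in KO and 5.08, 4.81 and 5.03 CPM in WT cells, and its difference was -4.56 with reverse-strand counts. The counts do not use strand, so reads of an antisense gene and of its partner cannot be told apart in them. The other 5 genes were C4orf26 (-2.99), GALNT15 (-2.92), RTL1 (-2.85), STAC2 (-2.77) and KIAA1644 (-2.63). C4orf26, which encodes an extracellular protein of tooth enamel, was the most abundant of the 12 in WT cells, at 20.8, 20.7 and 18.8 CPM, against 2.25, 2.64 and 2.58 CPM in KO cells.

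**Figure D1:**
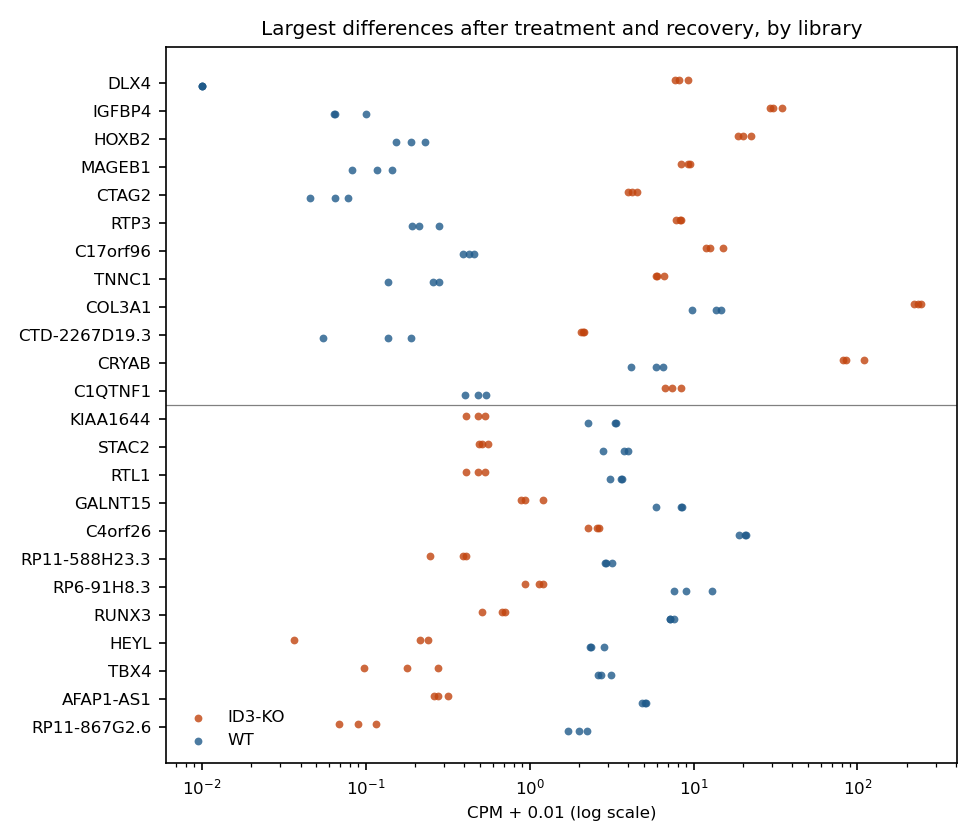
CPM plus 0.01 on a log axis in each of the 6 libraries for the 12 genes with the largest positive (above the line) and the 12 with the largest negative (below it) log2 difference, with 1 point per library, ID3-KO in orange and WT in blue. The points of the genotypes do not overlap for any of these genes, as the rule that chose them required, and DLX4 sits at the left edge in WT cells, with 0 counts in each library.

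Most of these differences were also present in cells that had not been treated. In the 6 untreated libraries 465 of 20441 genes (2.27%) were called higher in KO cells and 471 (2.3%) lower. No library is shared between these comparisons. Of the genes tested in both, 448 were called higher after recovery and 408 before treatment, and 260 were called in both, 58.0% of the first and 63.7% of the second. Of the genes called lower, 216 were shared, 58.5% of 369 and 52.7% of 410. After recovery 381 of the 448 higher and 298 of the 369 lower genes passed the adjusted p in untreated cells in the same direction, and 2 and 0 passed it in the opposite direction. Across 19530 genes, which are not independent replicates and share the cell lines, the log2 differences of the states correlated with r = 0.81 (Pearson) and rho = 0.68 (Spearman).

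Levels before treatment are given for 4 of the genes with the largest differences. IGFBP4 was at 39.3, 38.6 and 44.5 CPM in untreated KO cells and DLX4 at 9.95, 9.56 and 10.2 CPM. COL3A1 stood at 501, 492 and 548 CPM in untreated KO and 41.1, 39.9 and 38.3 CPM in untreated WT cells, with a log2 difference of 3.70, so both genotypes stood lower after recovery. RUNX3 stood at 6.0, 5.28 and 5.19 CPM in untreated WT and 0.37, 0.38 and 0.62 CPM in untreated KO cells (-3.61). The genotype contrast of RUNX3 thus had nearly the same size before treatment and after recovery.

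**Figure D2:**
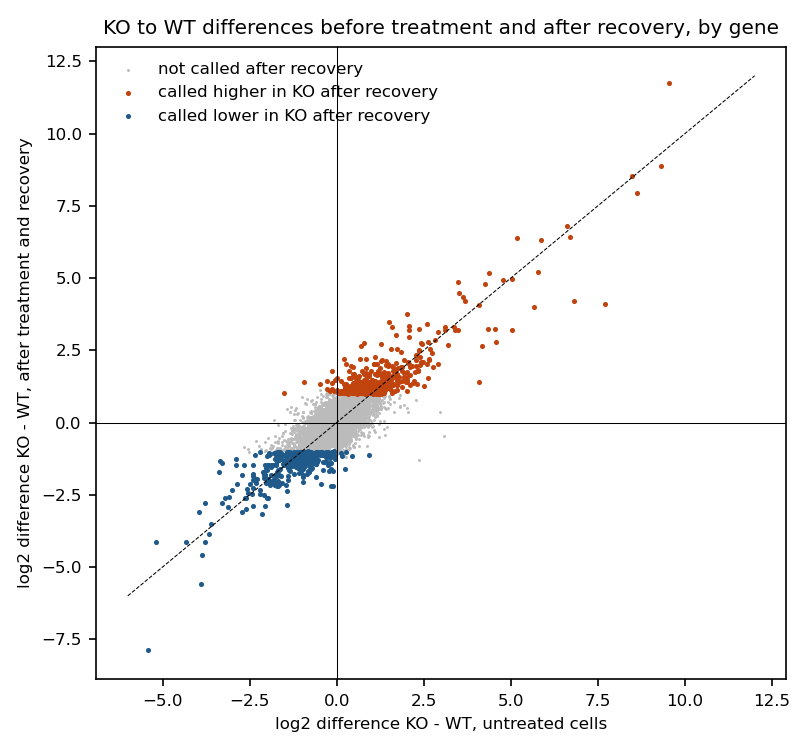
Log2 difference KO minus WT after treatment and recovery (vertical axis) against the same difference in untreated cells (horizontal axis), 1 point per gene tested in both, with genes called higher after recovery in orange, called lower in blue and others in grey; the dashed line marks equal differences. Most called genes lie in the quadrants of equal sign, and the point at the upper right is DLX4, whose fitted values depend on near-zero WT counts.

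In the 6 mocetinostat-treated U2OS libraries 286 of 21800 genes (1.31%) were called higher in KO cells and 475 (2.18%) lower. Of genes tested in both, 148 were called higher in both comparisons, 31.0% of those called in AID-DIvA cells and 71.5% of those called in U2OS cells. The lower genes shared 187, 45.2% and 54.0%, and 14 of the higher and 3 of the lower genes passed the adjusted p in the opposite direction in U2OS cells. In all 3 comparisons 133 genes were called higher and 130 lower. DLX4, IGFBP4, HOXB2, MAGEB1 and CTAG2 were among the higher genes in U2OS cells, with IGFBP4 at 52.9, 48 and 50.2 CPM in KO and 0.30, 0.14 and 0.15 CPM in WT cells. The difference of COL5A1, a fibrillar collagen, was 1.31 in recovered AID-DIvA cells and 0.00 in the U2OS libraries, and this change was not tested.

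Part of the differences followed chromosome position. Of 281 windows of 10 Mb with at least 20 tested genes, the median log2 difference had quartiles of -0.07 and 0.02, and 26 windows had a median beyond 0.3 in either direction, 11 positive and 15 negative. All 26 had the same sign in the untreated and the U2OS comparison. These windows, with the stretches below, held 220 of the 957 called genes (23.0%) and 8.09% of the genes tested. Outside them 376 genes were higher and 361 lower. The windows and stretches were chosen by these same differences, so a larger share of called genes in them follows from that choice. The 220 genes were counted whatever their direction. Adjacent windows on chromosome 10 between 10 and 30 Mb (medians 0.60 and 0.60) and on chromosome 7 between 10 and 50 Mb (-0.50 to -0.32) were among the 26 windows. IGFBP4, C17orf96, CTD-2267D19.3, STAC2 and LIG3 lie in the window of chromosome 17 from 30 to 40 Mb (median 0.33), MAGEB1 in that of X from 30 to 40 Mb (-0.41) and RP11-867G2.6 in that of chromosome 11 from 90 to 100 Mb (0.47). MAGEB1, RP11-867G2.6 and STAC2 differed against the sign of the median of their window. DLX4, HOXB2, COL3A1, TBX4, HEYL and RUNX3 lie outside the shifted windows. The files hold no measure of DNA in these cells.

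The largest block lay on chromosome 11 from CCDC82 to CADM1 (GRCh37, 96085933 to 115375675), with ends chosen after the values were seen. Of its 94 tested genes 65 (69.1%) were called higher, none was called lower and 91 had a difference above 0. The median was 1.27 after recovery, 1.35 in untreated and 1.19 in treated U2OS cells, and 3 of the 94 genes had an interaction. Among 51 genes with at least 5 CPM, 50 were above 0, and the quartiles were 0.98 and 1.42; the exception was the matrix protease MMP3 (-0.17), at 52.3 CPM in WT replicate 1 against 25.2 and 22.8 in the others. The 5 such genes before the block ran from -0.14 to 0.50 and the 5 after it from -0.20 to 0.20. The block holds CRYAB as well as the kinase ATM, which senses double-strand breaks.

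ATM stood at 48.2, 69.3 and 70.1 CPM in KO and 26.0, 25.4 and 24.7 CPM in WT cells (log2 difference 1.31, standard error 0.13, edgeR adjusted p = 6.6e-05). USP28, a deubiquitinase of the damage response, was at 88.9, 101 and 97.0 against 37, 38.1 and 39.5 CPM (1.34). ZW10, a kinetochore protein of the spindle checkpoint, was at 81.1, 103 and 107 against 43.1, 39.1 and 36.8 CPM (1.31). The coactivator YAP1, named after its values were seen, stood at 65.7, 72.5 and 76.0 against 25.5, 25.3 and 25.8 CPM (1.5). These 4 genes had much the same difference as the block around them, and CRYAB a larger one.

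A block on chromosome X from SRPX to WDR13 (38008589 to 48463581), also with ends chosen after the values were seen, moved the other way. Of 72 tested genes 33 (45.8%) were called lower, none higher, and 70 were below 0, with medians of -0.96 after recovery, -0.99 in untreated and -0.97 in U2OS cells. All 41 genes with at least 5 CPM were below 0, from -1.48 to -0.46, whereas the 5 before the block ran from -0.42 to 0.09 and the 5 after it from -0.21 to 0.25. TIMP1, an inhibitor of matrix metalloproteases, lies there and stood at 196.4, 175 and 166 CPM in KO and 466, 480 and 476 CPM in WT cells (log2 difference -1.39, standard error 0.07, edgeR adjusted p = 9.0e-07). EBP, an enzyme of cholesterol synthesis, was at 42.0, 39.8 and 40.7 against 67.9, 77.5 and 77.9 CPM (-0.85).

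**Figure D3:**
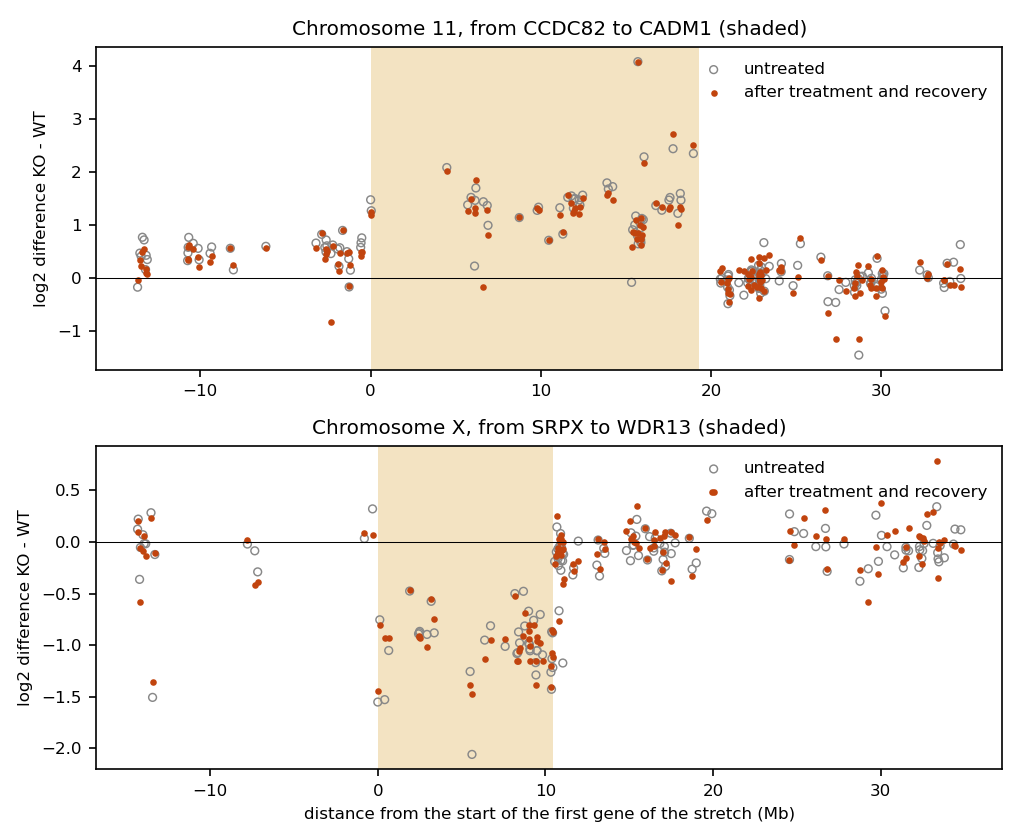
Log2 difference KO minus WT of genes with at least 5 CPM against distance in Mb from the start of the first gene of the block, for chromosomes 11 (top) and X (bottom), after treatment and recovery (filled) and in untreated cells (open); the shading marks the block. Filled and open points lie close together, above 0 in the block of chromosome 11 (apart from MMP3 after recovery and LAYN in untreated cells) and below 0 in that of chromosome X.

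Many genes of the G2 and M phases were lower in KO cells after recovery. Of the 54 genes of the Seurat G2/M phase list, 25 were lower and 1 higher at an adjusted p below 0.05, beside 11.1% and 12.6% of all genes. The median of these 54 genes was -0.26. Their summed level was 7827, 8330 and 8409 CPM in KO and 9694, 9924 and 9845 CPM in WT cells, so the genotypes did not overlap. In untreated cells 17 were lower and 8 higher, beside 18.1% lower and 18.6% higher of all genes, with a median of -0.03 and sums of 13816 to 14236 CPM in KO and 14601 to 14662 CPM in WT cells. In the treated U2OS libraries 7 were lower and 28 higher, beside 19% of all genes in each direction, with a median of 0.12. In bulk RNA fewer cells in a phase and less RNA per cell cannot be told apart.

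The difference between the states pointed down in 52 of the 54 genes (median interaction -0.21, beside -0.02 over all genes tested, of which 53.7% were negative), and it passed the interaction test in 3, AURKA, ANLN and CDCA3. AURKA, a kinase of spindle assembly, stood at 98.7, 107 and 103 CPM in KO and 158, 151 and 154 CPM in WT cells (log2 difference -0.57, standard error 0.06, edgeR adjusted p = 7.4e-05). Before treatment its difference was -0.22, and the interaction was -0.36 (edgeR adjusted p = 0.013). CKAP2L, a spindle protein, had the smallest p of the list, at 45.1, 51.0 and 54.8 against 87.3, 88.0 and 87.6 CPM (-0.79, standard error 0.08). It lies on chromosome 2 in a window with a median of -0.41, and in untreated cells its difference was -0.49. ANLN, a scaffold of the cytokinetic ring, differed by -0.57 after recovery and -0.19 before treatment, and CDCA3, a mitotic regulator, by -0.18 and 0.13, the former without passing the test.

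Other mitotic genes, chosen after their values were seen, moved in the same direction. The checkpoint kinase BUB1 stood at 99.6, 121 and 118 CPM in KO and 194, 184 and 190 CPM in WT cells (log2 difference -0.74, edgeR adjusted p = 7.5e-05). BUB1 lies in the same window of chromosome 2 as CKAP2L, with a median of -0.41. Topoisomerase TOP2A was at 397, 532 and 548 against 815, 840 and 817 CPM (-0.73), cyclin CCNB1 at 223, 251 and 250 against 345, 331 and 333 CPM (-0.47) and the kinase PLK1 at 105, 101 and 98.1 against 131, 138 and 141 CPM (-0.42). Of 30 G2/M kinases and regulators 14 were lower and 3 higher; the 3 were the kinase MASTL (0.59), which lies in the raised part of chromosome 10, and the transcription factors MYBL2 (0.25) and FOXM1 (0.23). Of 42 kinetochore and checkpoint genes 10 were lower and 2 higher, MAD1L1 (0.40) and ZW10. Of 13 kinesins 4 were lower (KIF2C, KIF20A, KIF15 and KIF23) and none higher. Without WT replicate 2 the lower members numbered 9, 6 and 2 in the 3 lists, and the kinesins numbered 2 without KO replicate 2 and 8 without KO replicate 1. The kinases and regulators share 11 members, the kinetochore genes 9 and the kinesins 4 with the longer G2/M list.

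The G2/M count depended on single libraries. It was 33 without KO replicate 1 and 16 without WT replicate 2, and 21 of the 50 members outside the shifted windows were lower. All 4 members within the shifted windows were lower. Of 43 S phase genes 2 were lower (POLR1B, CDC6) and 2 higher (MCM7, GINS2) after recovery, against 20 higher and 4 lower in untreated cells. Without KO replicate 1, 11 of the S phase genes were higher, and without WT replicate 2 none was. The difference between the states also pointed down in 33 of the 43 S phase genes (median interaction -0.11), in 30 of 31 homologous recombination genes (-0.15) and in all 14 condensin and cohesin genes (-0.14), without passing the interaction test in any of them. Among 5 cyclin-dependent kinase inhibitors CDKN1C (0.84) and CDKN1B (0.71) were higher, while CDKN1A, the p21 gene, was at 350, 311 and 309 CPM in KO and 313, 372 and 370 CPM in WT cells (-0.11).

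Genes of DNA break repair showed few differences. Of 23 genes of break sensing and signalling 3 were higher, ATM and USP28 in the chromosome 11 block and RNF168 (0.26), and 3 were lower, HUS1 (-0.52), ATRIP (-0.23) and TP53BP1 (-0.19). Of 31 homologous recombination genes 2 were higher, RAD51D (0.44) and RAD52 (0.28), and 3 lower, RAD51B (-0.42), RAD51C (-0.37) and BRCA1 (-0.34). RAD51C stood at 63.1, 70.7 and 64.3 CPM in KO and 87.9, 85.5 and 85.5 CPM in WT cells (edgeR adjusted p = 0.0022). Of 18 end joining genes 3 were higher, LIG3 and DCLRE1C among them, and 3 lower (APLF, POLM and TDP1), with the ligase LIG3 at 51.2, 49.4 and 48.4 against 36.2, 34.3 and 36.5 CPM (0.49). These shares lie near the 12.6% and 11.1% of all genes that passed. Without any one of the WT libraries a single gene was lower in the break sensing and in the end joining list, and without KO replicate 1 the higher genes numbered 5 in break sensing and 4 in homologous recombination. Of 28 p53 targets 2 were higher and 1 lower; BAX, which promotes apoptosis, differed by 0.36.

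**Figure D4:**
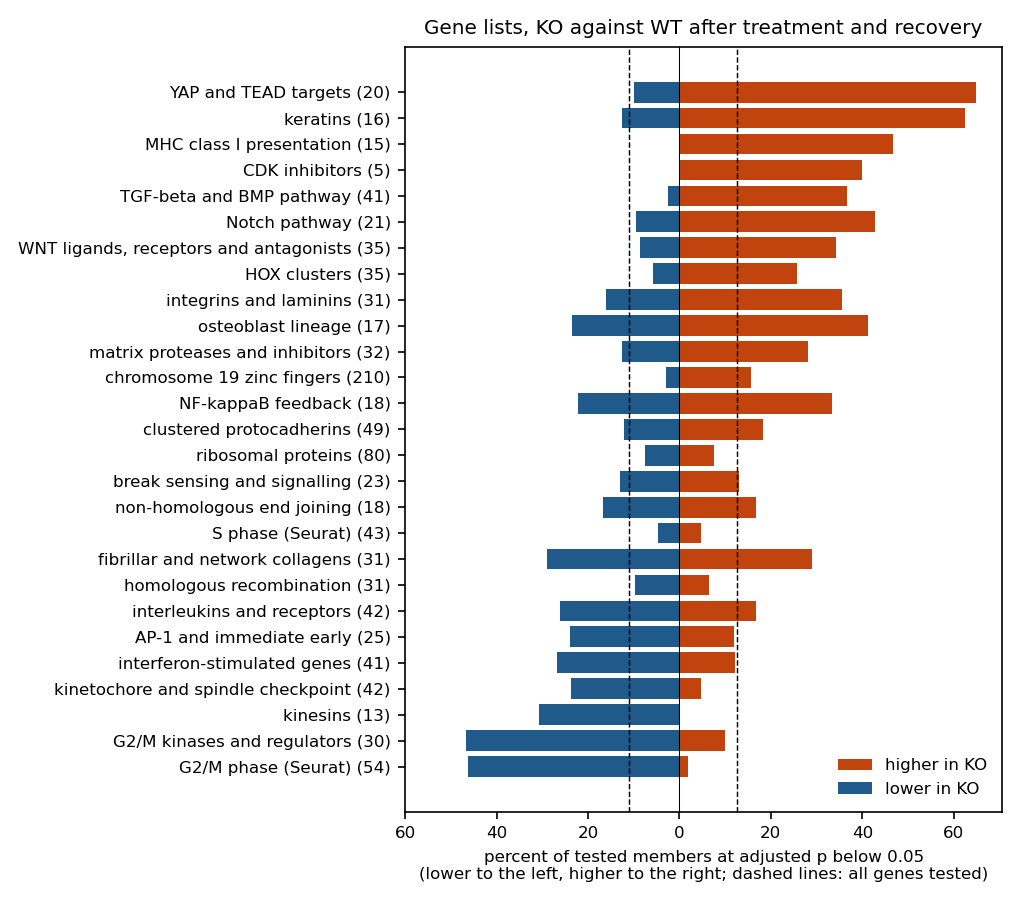
Percent of the tested members of 27 gene lists (number tested in parentheses) that were lower (left, blue) or higher (right, orange) in KO cells after treatment and recovery at an adjusted p below 0.05, with dashed lines at the 11.1% and 12.6% of all tested genes. Among the lists plotted, the G2/M lists reach furthest to the left and the targets of YAP and TEAD and the keratins furthest to the right, and some lists share members.

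In several signalling pathways more genes were higher than lower in KO cells, beside 12.6% higher and 11.1% lower of all genes. Of 41 genes of the TGF-beta and BMP pathway, which controls growth, matrix and bone formation, 15 were higher and 1, LTBP2, lower. In untreated cells 22 of 42 were higher and 5 lower, beside 18.6% and 18.1% of all genes, and the median interaction was -0.01. After recovery the secreted BMP antagonist NOG stood at 103, 91.9 and 86.4 CPM in KO and 36.6, 30.7 and 31.1 CPM in WT cells (log2 difference 1.53, standard error 0.09, edgeR adjusted p = 2.8e-06). The decoy receptor BAMBI, within the raised part of chromosome 10, was at 4.65, 3.87 and 4.41 against 1.79, 1.28 and 1.83 CPM (1.39). The ligand BMP4 was at 56.2, 57.9 and 53.8 against 15.4, 20.2 and 21.8 CPM (1.56). Its difference in untreated cells was 0.51, with 109, 111 and 122 against 79.0, 79.1 and 82.5 CPM, so both genotypes stood lower after recovery and WT cells more so (interaction 1.04, edgeR adjusted p = 0.00073).

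Of 20 targets of YAP and TEAD, the factors of the Hippo pathway, 13 were higher and 2, MYOF and AXL, lower, with a median of 0.36. In untreated cells 12 of 21 were higher and 3 lower, with a median of 0.16. The median interaction was -0.0054, with 11 members negative, and only CTGF, a secreted matricellular protein named after its values were seen, passed the interaction test (0.71, edgeR adjusted p = 0.016). AMOTL1 had the smallest p, at 100, 94.8 and 95.6 CPM in KO and 47.6, 56.4 and 53 CPM in WT cells (0.90), and lies on chromosome 11 in a window with a median of 0.47. ANKRD1, a further target named after its values were seen, was at 470, 443 and 442 against 298, 255 and 250 CPM (0.77). Outside the shifted windows 11 of 18 were higher. Of 35 WNT ligands, receptors and antagonists 12 were higher and 3, WNT7B, WNT5B and WNT9A, lower. In untreated cells 13 of 35 were higher and 4 lower. After recovery the coreceptor LRP5 stood at 65.0, 56.5 and 57.2 against 22, 24.7 and 25.2 CPM (1.33, standard error 0.09), while the ligands WNT7A (1.26) and WNT4 (1.14) and the receptor FZD10 (1.53) averaged below 1 CPM. Of 21 Notch pathway genes 9 were higher, none by more than 0.82, and 2 lower, HEYL and the ligand JAG1 (-0.66). In untreated cells 4 of the 21 Notch genes were higher and 5 lower.

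Matrix genes moved in both directions, beside 12.6% higher and 11.1% lower of all genes. Of 31 collagens 9 were higher and 9 lower. COL5A1 stood at 230, 189 and 184 CPM in KO and 67.9, 83.8 and 93.7 CPM in WT cells (log2 difference 1.31), with COL3A1 the other called gene on the higher side. COL8A1, a network collagen, was at 9.04, 8.36 and 9.45 against 23.1, 27.6 and 27.2 CPM (-1.53, edgeR adjusted p = 3.7e-06), and COL1A2, a chain of type I collagen, at 0.29, 0.13 and 0.08 against 0.62, 0.72 and 0.72 CPM (-2.09). Of 31 integrins and laminins 11 were higher, among them LAMA4 (1.77) and ITGB2 (1.07), and 5 lower, among them LAMA3 (-1.35). Without KO replicate 2 the lower collagens numbered 5 and the lower integrins and laminins 3, a number also found without WT replicate 2, WT replicate 3 or KO replicate 3. ITGA8 rested on 9, 23 and 11 counts in KO and 2, 0 and 0 in WT libraries, a ratio of 21.7 with a 95% counting interval of 5.65 to 185. Fibronectin (FN1), a marker of the line, was at 250, 244 and 229 against 402, 369 and 399 CPM (-0.68).

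Of 17 genes of the osteoblast lineage 7 were higher and 4 lower, beside 12.6% and 11.1% of all genes. Alkaline phosphatase (ALPL), an enzyme of mineralization, was at 0.95, 1.21 and 1.28 CPM in KO and 6.74, 6.04 and 4.82 CPM in WT cells (-2.32, standard error 0.16, edgeR adjusted p = 6.9e-06). Of 16 keratins 10 were higher and 2, KRT15 (-1.79) and KRT5 (-1.02), lower; 8 of the 16 lie in shifted windows, and of the 8 others 6 were higher and 1 lower. KRT81 was the most abundant of the called keratins, at 404, 369 and 424 against 129, 190 and 182 CPM (1.27). KRT81 lies within the annotated span of KRT86, a related gene, so the counts of both are uncertain. The adhesion gene CDH1, a marker of epithelia, was at 0.48, 0.54 and 0.59 against 1.59, 1.95 and 1.66 CPM (-1.67). Of 49 clustered protocadherins 9 were higher and 6 lower, led by PCDHGB4 (4.33) at 1.56, 1.59 and 1.22 against 0.09, 0.04 and 0.07 CPM, a ratio of 20.7 with a 95% counting interval of 11.4 to 42.1; the variable exons of these genes share downstream exons, which makes their counts uncertain. Of 35 HOX genes 9 were higher and 2 lower, and apart from HOXB2 none differed by more than 0.97. Without KO replicate 2, 5 HOX genes were higher and 3 protocadherins lower, and 3 protocadherins were lower also without WT replicate 2 or 3.

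Of 41 interferon-stimulated genes 11 were lower and 5 higher, beside 11.1% and 12.6% of all genes. OASL, an antiviral protein related to the oligoadenylate synthetases, stood at 4.57, 4.10 and 4.79 CPM in KO and 18.9, 15.3 and 13.9 CPM in WT cells (-1.83, standard error 0.13, edgeR adjusted p = 6.7e-06). IFI44 was at 10.1, 12.7 and 13.2 against 54.5, 38.9 and 34.9 CPM (-1.81). IFIT3, which binds foreign RNA as part of a complex with other IFIT proteins, was at 7.0, 7.37 and 7.12 against 23.7, 17.1 and 16.5 CPM (-1.40), beside -0.15 in untreated cells (interaction -1.25, edgeR adjusted p = 0.0027). The tethering protein BST2 went the other way, at 19.2, 16.4 and 15.6 against 4.23, 4.92 and 4.62 CPM (1.91). WT replicate 1 was the highest WT library for OASL, IFI44 and IFIT3, and in these 3 genes the KO libraries all lay under the lowest WT value.

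Of 15 genes of MHC class I presentation 7 were higher and none lower, with a median of 0.27. HLA-F stood at 14.6, 14.1 and 13.6 CPM in KO and 7.0, 8.83 and 8.59 CPM in WT cells (0.81, edgeR adjusted p = 0.00033), and HLA-B (0.29) and HLA-C (0.27) differed less; reads of these related genes can be split among them. Of 42 interleukins and receptors 11 were lower and 7 higher, beside 11.1% and 12.6% of all genes. Outside the shifted windows 5 of 33 were lower and 4 higher, and of the 9 within them 6 were lower and 3 higher. The receptor chain IL2RB was at 25.7, 25 and 26.2 against 53, 48.2 and 50.4 CPM (-0.97), IL24 at 15.2, 11.9 and 12.2 against 46.0, 27.9 and 28.6 CPM (-1.38) and the inflammatory cytokine IL6 at 0.82, 0.45 and 0.57 against 2.24, 1.42 and 1.75 CPM (-1.61). IL6 lies on chromosome 7 in a window with a median of -0.41. Of 18 NF-kappaB feedback genes 6 were higher and 4 lower. Of 25 AP-1 and immediate early genes 6 were lower and 3 higher; FOS was at 52.6, 21.1 and 27.9 against 83.1, 52.0 and 89.9 CPM (-1.14, edgeR adjusted p = 0.030), and its groups overlapped. Without KO replicate 2 the lower AP-1 genes numbered 2 and the lower interleukins and receptors 7, and without WT replicate 3 the lower AP-1 genes numbered 3.

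Ribosomal protein genes, a list with 80 tested members, had 6 higher and 6 lower, beside 12.6% and 11.1% of all genes. In untreated KO cells 44 of 81 were lower and none higher, beside 18.1% and 18.6% of all genes. The median interaction of the list was 0.20, with 6 members negative, and 2 members passed the interaction test. Both counts after recovery rested on single libraries: without WT replicates 1, 2 and 3 there was 1 higher each time and there were 3, 1 and 3 lower, and 2 were lower without KO replicate 2 or 3. RPL31 had the smallest p, at 526, 524 and 504 CPM in KO and 655, 654 and 662 CPM in WT cells (-0.33, edgeR adjusted p = 0.0011), and lies in a shifted window of chromosome 2. Of 210 zinc finger genes on chromosome 19, 33 were higher and 6 lower, beside 12.6% and 11.1% of all genes. These zinc finger counts moved to 14 and 3 without KO replicate 2. The higher genes numbered 60 without KO replicate 1 and 20, 18 and 18 without WT replicates 1, 2 and 3, and 3 were lower without WT replicate 3. ZNF283 stood at 46.6, 56.1 and 59.4 against 30.7, 29.3 and 29.2 CPM (0.88). Of the 13 genes of the mitochondrial genome 3 were higher and none lower; MT-ND1, a subunit of complex I, was at 5483, 4695 and 4544 against 3711, 2944 and 2953 CPM (0.63, edgeR adjusted p = 0.0019), and 5 were higher without WT replicate 1 and 6 without KO replicate 3.

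Of 32 matrix proteases and inhibitors 9 were higher and 4 lower (TIMP1 among the latter), beside 12.6% and 11.1% of all genes. Of 23 contractile genes 5 were higher and 4 lower; troponin T of the heart (TNNT2) stood at 2.14, 1.82 and 1.49 against 0.26, 0.52 and 0.50 CPM (2.11) and the filament protein desmin (DES) at 4.07, 2.51 and 2.85 against 0.66, 1.10 and 1.15 CPM (1.69). Of 38 neuronal genes 7 were higher and 8 lower, with the granule protein CHGA at 2.51, 2.60 and 2.08 against 4.68, 5.62 and 5.66 CPM (-1.13). Without KO replicate 2 the lower contractile genes numbered 2, as without WT replicate 2 or KO replicate 3, and the lower neuronal genes 4. Of 29 heat shock genes 3 were higher, 2 of them (HSPB2 and HSPA14) in shifted regions, and 5 lower. Of 24 cholesterol synthesis genes 1 was higher and 4 lower, and of 25 genes of the integrated stress response 3 were higher and 3 lower, with the hormone FGF21 at 4.28, 2.93 and 2.18 against 0.565, 1.28 and 1.09 CPM (1.69).

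Of 46 genes of replication licensing and forks 6 were higher and 3 lower, beside 12.6% and 11.1% of all genes. RPA3, a subunit of the single-strand binding complex, was at 118, 130 and 137 against 83.7, 82.1 and 78.9 CPM (0.67). It lies in a raised window of chromosome 7. Without KO replicate 2 or WT replicate 3 only 2 genes of the replication list were higher, and without WT replicate 2 only 3. Of 27 replication-dependent histone genes 2 were higher and 3 lower, with the linker histone HIST1H1C at 49.7, 45.0 and 46.0 against 22.6, 24.6 and 23.9 CPM (1.0). Of 14 condensin and cohesin genes 1, NCAPH (-0.61), was lower. Of 10 acetyltransferases 1 was higher and 1, KAT2A (-0.51), lower, and none of the 7 other HDACs passed. Of 20 chemokines and receptors 4 were higher and 3 lower, with CCL4 at 3.94, 2.89 and 2.64 against 0.93, 0.85 and 1.07 CPM (1.72). Of 12 MHC class II genes 2 were higher and 1 lower.

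The change of the KO to WT difference between untreated and recovered cells was tested as an interaction over the 12 AID-DIvA libraries. It was positive in 162 (0.762%) and negative in 96 (0.451%) of 21265 genes at an adjusted p below 0.05. Of the 503 genes called higher after recovery, 34 had a positive and 6 a negative interaction, and of the 454 called lower, 5 had a positive and 16 a negative one. Among called genes that did not pass the adjusted p in untreated cells, 65 higher and 71 lower, the interaction passed in 10 and 9, so for the others a change with treatment was not shown.

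PPARGC1A, a coactivator of mitochondrial biogenesis, changed direction. It was at 0.60, 0.64 and 0.51 CPM in untreated KO and 2.07, 1.70 and 1.38 CPM in untreated WT cells, and at 2.09, 2.29 and 2.39 against 1.22, 1.17 and 1.02 CPM after recovery (interaction 2.53, edgeR adjusted p = 5.2e-05). COL5A3 likewise went from -0.85 to 0.81, with 2.40, 2.60 and 2.42 against 4.44, 4.49 and 4.51 CPM before treatment and 16.3, 12.7 and 13.6 against 7.05, 8.54 and 8.90 CPM after recovery. TRAF1, an adaptor of TNF receptors, went from -1.32 to 0.52 (interaction 1.83, edgeR adjusted p = 0.00011). In each of these 3 genes the genotypes did not overlap in either state, and their order was opposite in the states.

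Other differences were seen in one state or narrowed. SOD2, the mitochondrial superoxide dismutase, was at 90.1, 88.8 and 87.4 CPM in untreated KO and 93.9, 91.7 and 94.0 CPM in untreated WT cells, and at 138, 145 and 153 against 272, 231 and 226 CPM after recovery (interaction -0.67, edgeR adjusted p = 0.0015). TGM2, a transglutaminase, went from a difference of 0.85 to -0.01, with 275, 252 and 228 against 275, 252 and 241 CPM after recovery. The pseudogene RPLP0P2 went from -1.48 to -0.06 and RP11-47I22.3 from -2.89 to -1.27; RPLP0P2 shares sequence with the gene RPLP0, and its counts are uncertain. RTL1, a retrotransposon-derived gene, widened from -1.42 to -2.85 and MYO7B, a myosin of the brush border, from -0.30 to -1.06, while KRT75 (2.62 to 1.55) and KRT81 (2.50 to 1.27) narrowed.

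**Figure D5:**
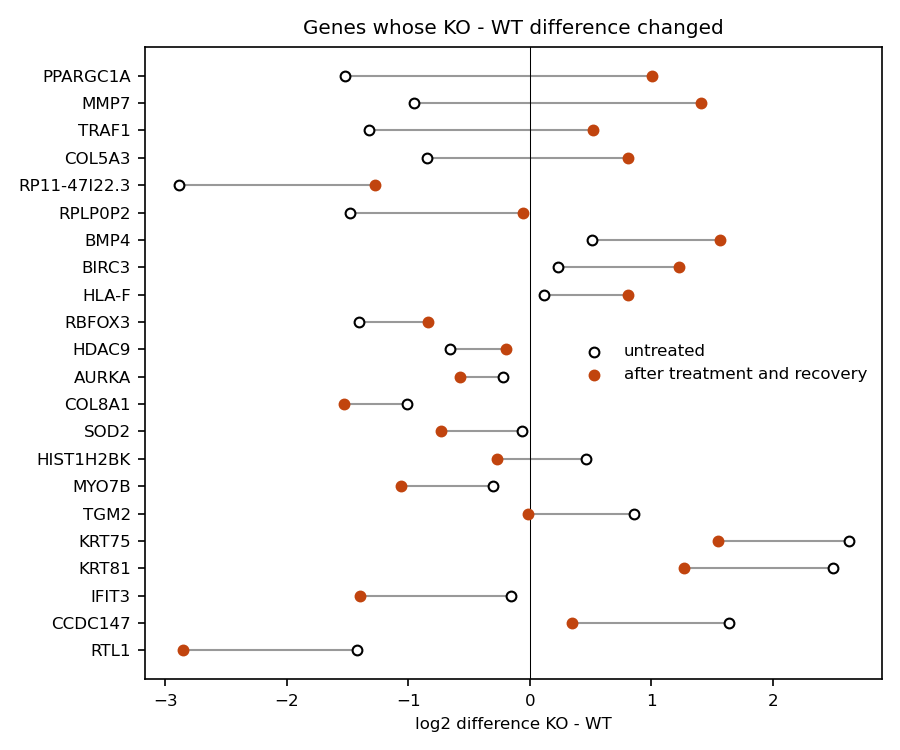
Log2 difference KO minus WT in untreated cells (open) and after treatment and recovery (filled) for the 22 named genes whose interaction passed the test, ordered by its size. PPARGC1A, MMP7, TRAF1 and COL5A3 cross from below to above 0, HIST1H2BK crosses in the other direction, and TGM2 ends at -0.01.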

How the data were processed

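RNA of 24 libraries was sequenced with a stranded total RNA kit; per the labels and the study's methods, the authors aligned reads with STAR to hg19 (GRCh37) and counted them per gene with featureCounts. The deposited counts used here are raw read counts of 57820 genes that ignore strand; the reverse-strand counts served as an alternative. The annotation version of the gene identifiers was not settled from the sources used here.

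Genes were filtered with filterByExpr and tested with edgeR 4.0.16 (TMM, robust quasi-likelihood test, Benjamini-Hochberg over all genes tested; R 4.3.3), on the 6 libraries of each comparison and, for the interaction, on the 12 AID-DIvA libraries. A call required an adjusted p under 0.05 together with a log2 difference beyond 1, and for the interaction an adjusted p under 0.05 alone. In simulated counts 200 genes of at least 1 CPM were given a log2 change of 1.5. The test found 99.5% of them for the treated and recovered libraries (19797 genes) and 98.5% for the interaction (20843 genes). Among the genes it passed at an adjusted p below 0.05, 6.57% and 5.74% were false. Changes in genes under 1 CPM were not simulated. Alternatives used DESeq2 1.42.0, other scalings and filters, glmTreat, all 4 groups in one fit, a replicate block, each library left out, 5 Mb windows and promoters of genes called by adjusted p alone; counting outside the shifted windows was added after the data were seen. G2/M and S phase lists came from Seurat 5.3.0. Named genes were the 12 largest differences each way among called genes of at least 1 CPM without overlap, the ID and E protein genes, up to 4 called members and the member with the smallest p per list, and 5 interaction genes each way. The members and lists were chosen with earlier results of these data known. The study's methods name biological replicates without saying whether they were separate cultures, so p-values measure the spread between these samples; intervals cover counting error only. The values of a few listed genes are not reported here.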

Additional observations from a re-analysis of the deposited data

Results flagged for a closer look

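For 22 named genes the KO to WT difference changed between untreated and recovered AID-DIvA cells. The test was of the change itself (edgeR interaction over 12 libraries, adjusted over all genes tested). Some of the 22 genes, 5 each way, were named for their result in this same test. The count of 22 and its stability therefore follow in part from that choice. Of all genes tested, 0.762% had a positive and 0.451% a negative interaction. For 14 of the 22 genes the call held in every alternative run. Among these, the change on the log2 scale was positive for PPARGC1A (2.53), TRAF1 (1.83), COL5A3 (1.65), RP11-47I22.3 (1.61), RPLP0P2 (1.41) and BMP4 (1.04). It was negative for RTL1 (-1.44), CCDC147 (-1.30), IFIT3 (-1.25), KRT75 (-1.08), TGM2 (-0.87), MYO7B (-0.77), HIST1H2BK (-0.74) and SOD2 (-0.67). RPLP0P2 and RP11-47I22.3 had the smallest edgeR adjusted p, 1.7e-06 each. IFIT2 (-1.20), IFIT1 (-0.56) and ISG15 (-0.88), named after their values were seen, passed the interaction test in the same direction as IFIT3.

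The calls of the other 8 genes depended on the settings. KRT81 (-1.23) was lost without KO treated replicate 1 (edgeR adjusted p = 0.0645) and MMP7 (2.35), at under 1 CPM in every library, without WT untreated replicate 2 (edgeR adjusted p = 0.0519). AURKA (-0.36) was lost in 2 and HLA-F (0.68) in 3 of 19 settings, with edgeR adjusted p of at most 0.0548, without WT untreated replicate 3, and 0.058, without WT untreated replicate 1. COL8A1 (-0.53) was lost in 9, BIRC3 (0.99) in 10, HDAC9 (0.45) in 11 and RBFOX3 (0.57) in 12 of 19 settings.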

How the results depend on the processing

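No called result reversed. Of 1752 values of 127 named genes under the alternatives, 1684 kept their direction and side of the threshold, 7 changed sign without passing the test under either setting (ID4, TCF4 and TGM2), 60 lost the call and 1 gained it; the losses were those of ID1 (11), FOS and KRT5 (7 each), MMP7 (6), WNT4, FOSB and CD3D (5 each), ZNF818P (4), HIST1H2BK and EGR2 (3 each), ZNF154 (2), CDC6 and CCDC147 (1 each). With at least 10 counts in every library 268 genes were lower after recovery, 280 higher and 279 lower in untreated cells, and 181 higher and 281 lower in U2OS cells; this filter removes genes near 0 in one genotype. By adjusted p alone the counts were 2537 and 2222 after recovery, 3793 and 3709 in untreated cells and 4133 and 4134 in U2OS cells. The interaction was called in 258 genes, in 462 with DESeq2 and in 613 with no filter; the cause was not tested.

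Leaving out 1 library gave 453 to 535 genes higher and 422 to 505 lower after recovery, 461 to 496 and 475 to 552 in untreated cells, 284 to 324 and 459 to 552 in U2OS cells, and -0.99 to -0.82 for ID3. The interaction count ran from 122 to 297, and it was 122, 135 and 160 without WT untreated replicates 1, 2 and 3, 149 without KO treated replicate 2, and 146 and 138 without KO untreated replicates 1 and 2. The G2/M phase genes lower in KO numbered 16 to 33. Of 98 list counts over 49 lists (higher or lower members), 48 moved by over 1.5 times without some library, 31 of them counts under 4. The windows of 5 Mb had extreme medians of 1.32 and -0.81, beside 1.30 and -0.87 at 10 Mb.

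A pairing of samples by replicate number was not shown. Between treated KO and WT libraries of one number the deviations from the group mean correlated at -0.42, -0.19 and -0.45. For the other pairs of AID-DIvA groups these correlations ran from -0.53 to 0.45. With 3 libraries per group, a batch shared by replicate number was not tested. With the replicate number as a block, 464 genes were higher and 417 lower after recovery, 468 and 488 in untreated cells, and 294 and 485 in U2OS cells; 16 G2/M phase genes were lower, and 157 genes had an interaction. The depth limits statements on genes with few counts in WT cells, such as DLX4, IGFBP4 and CTAG2, to bounds or counting intervals.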
